A study of Mus musculus with 12 samples.

Results

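Long non-coding RNAs (lncRNAs) are transcripts that are not read as protein, and intronic lncRNAs are those that lie inside an intron of another gene without being part of its spliced product. Some are independent transcription units, and others are stable remnants of introns. Libraries made from total RNA after removal of ribosomal RNA also hold unspliced precursor RNA, whose introns cover the same stretches of the genome. Many lncRNAs of the nervous system are known for being made in few tissues and at low levels.

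The transcripts described here are the rows that the deposited table of assembled lncRNA types as intronic. They number 2013 of 5602 assembled transcripts, and the others are 2847 intergenic and 742 antisense transcripts. The 2013 transcripts come from 1955 loci, carry a serial name and a locus name, and have no gene symbol. The table gives no coordinates, strand, host gene or sequence, so the intronic position could not be checked, no sequence is printed, and the share of each value that comes from precursor RNA of a host gene was not tested.

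RNA was measured in wild-type C57BL/6 mice, an inbred strain, at 8 weeks of age, in a series on chronic inflammatory pain of the jaw joint. The 4 groups were STG and CTG from the trigeminal ganglia (TG), the sensory ganglia whose neurons innervate face and jaw, and SSp5C and CSp5C from the spinal trigeminal nucleus caudalis (Sp5C), where their pain and temperature fibres end in the brainstem, with 3 libraries each. The labels give no treatment and leave the letters S and C unexplained, so contrasts between them are given as C minus S. Whether each library is a separate animal is also not stated, so every p-value here reflects the spread among libraries only, and that spread may be technical.

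The tissues carried the markers of their labels. All 9 markers of sensory neurons and all 4 of Schwann cells, the glia of peripheral nerves, were higher in every TG library than in every Sp5C library, and all 7 markers of Sp5C neurons, all 4 of astrocytes and all 3 of oligodendrocytes the reverse. In 3 TG libraries, markers of other cells stood apart. Summed pituitary markers reached 2860 FPKM in STG replicate 1, against 2.57 to 51.6 elsewhere in TG. Summed granulocyte markers reached 871 in CTG replicate 1 and 292 in CTG replicate 3, against 3.97 to 33.5 in the remaining TG libraries. FPKM is a fragment number scaled to transcript length and library size, and the fragment numbers themselves are unknown. Relative depth could be read from steps in the low values, and the deepest library (CTG replicate 3, at 1.16 of the average) was 1.4 times as deep as the shallowest (CSp5C replicate 3, at 0.826).

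Most intronic lncRNAs were scarce and seen in few libraries. The median of their mean level over 12 libraries was 0.0755 FPKM, the quartiles were 0.042 and 0.141, and 61.6% lay under 0.1. A mean of at least 0.5 FPKM was reached by 61 transcripts (3.03%) and a mean of at least 1 by 10. Those 61 held 18.5% of the summed level of all intronic lncRNAs. In any one library between 779 and 990 of the 2013 were above 0, and between 10 and 20 were at 1 FPKM or more.

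Only 198 transcripts (9.84%) were above 0 in all 12 libraries, and LNC_004379 was listed at 0 in every one. At the other end, 311 (15.4%) were above 0 in a single library, at a median of 0.341 FPKM there and at most 1.03 (LNC_002474 in STG replicate 2). Another 299 were above 0 in 2 libraries and 247 in 3. Each library had between 12 (STG replicate 3) and 41 (SSp5C replicate 1) of these single-library transcripts. STG replicate 1, the library with the pituitary markers, had 18, and CTG replicate 1, with the highest granulocyte markers, had 26.

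**Figure D1:**
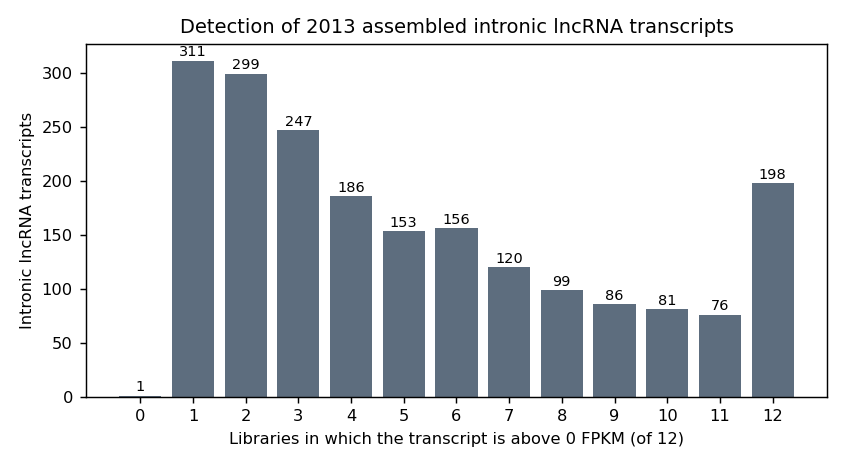
Number of intronic lncRNA transcripts (y axis) by the number of libraries, of 12, in which the transcript was above 0 FPKM (x axis). The bars are highest at 1 library (311 transcripts), fall to 76 at 11 libraries and stand at 198 at 12.

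The number of intronic lncRNAs above 0 was related to depth in TG. Over the 6 TG libraries the number ran from 804 in the shallowest (STG replicate 3) to 990 in the deepest (CTG replicate 3), with Pearson's r = 0.943 (exact permutation p = 0.00833, adjusted p = 0.0333 over 8 relations) and Spearman's rho = 0.943 (exact p = 0.0167, adjusted p = 0.134). Over the 6 Sp5C libraries r was 0.498 (exact permutation p = 0.319, adjusted 0.51) and rho 0.143 (exact p = 0.803, adjusted 0.918). Over all 12 libraries r was 0.738 (permutation p = 0.0034, adjusted 0.0272) and rho 0.587 (p = 0.048, adjusted 0.192). Without the 2 libraries farthest from the median depth r was 0.506 (permutation p = 0.124, adjusted 0.331). With 10 libraries and a narrower range of depth, this cannot tell whether the pooled relation rests on those 2. The TG relation includes CTG replicate 3 and was not run without it. The summed level of all intronic lncRNAs, between 219 and 300.0 FPKM per library, had an r of 0.161 with depth (permutation p = 0.621, rho 0.161). The 3 CTG libraries, which were deeper than the 3 STG libraries, had 873 to 990 transcripts above 0 against 804 to 872. The permutation exchanged libraries across letters, so that depth and letter cannot be told apart in the TG relation.

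The 10 intronic lncRNAs of highest mean level fell into several patterns. LNC_001567 (locus XLOC_060161) led, with a mean of 2.42 FPKM over 12 libraries that came almost wholly from TG. LNC_001214 followed at 1.56 and was at like levels in both tissues, between 1.16 and 1.79 FPKM in TG (median 1.56) and between 1.09 and 2.2 in Sp5C (median 1.51). LNC_003034, at a mean of 1.03, lay between 0.954 and 1.52 in TG and between 0.412 and 1.73 in Sp5C, and the tissues overlapped for both of these. LNC_005567 (1.46), LNC_004006 (1.39), LNC_004327 (1.27), LNC_000087 (1.19), LNC_004213 (1.11) and LNC_005579 (1.01) differed between tissues as given below, and LNC_003682 (1.04) changed from library to library within groups.

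The contrast of TG with Sp5C shows which intronic lncRNAs go with the peripheral ganglion and which with its central target. Differences were tested with limma on log2(FPKM + 0.5), a scale that understates the change of low transcripts, over all assembled transcripts with a mean of at least 0.5 FPKM. Of the 61 intronic lncRNAs that met this minimum, 8 were higher in TG and 15 higher in Sp5C (adjusted p under 0.05), 37.7% in all. Over all 465 assembled transcripts tested, 35.7% were called, 14.4% as higher in TG and 21.3% as higher in Sp5C, so that the share among intronic lncRNAs was near that of the table. After quantile normalization the split was 10 against 11, with 19 of the 23 calls shared, and 170 of all 465 assembled transcripts were called. Of the 15 calls without overlap of libraries, only LNC_004213 and LNC_004006 had a mean of at least 0.5 FPKM in both tissues, and the other 13 met the minimum through the tissue where they were higher, so that a difference was partly built into their being tested. In whole-tissue RNA, fewer cells of a type and less RNA per cell cannot be told apart.

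LNC_001567 had the highest difference at this pseudocount (3.68 at a pseudocount of 0.1, where LNC_000400 at 4.12 and LNC_004682 at 4.10 were higher), with a TG range of 3.86 to 5.28 FPKM (median 4.55) and an Sp5C range of 0.179 to 0.389 (median 0.261). Its means were 4.57 ± 0.539 and 0.271 ± 0.0899 (SD, n = 6 libraries each), a log2 difference of 2.72 with a standard error of 0.11 (limma adjusted p = 5.28e-08). All TG libraries, of both letters, stood far above all Sp5C libraries.

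A pair of transcripts was listed at or next to 0 throughout the brainstem nucleus. LNC_000400 (locus XLOC_014508) stood at 1.68, 1.92 and 1.4 FPKM in STG and 1.68, 1.73 and 1.76 in CTG, and was listed at 0 in 5 Sp5C libraries and at 0.0194 in CSp5C replicate 2 (log2 difference 2.12, adjusted p = 1.24e-08). LNC_004682 (locus XLOC_176376) stood at 2.3, 1.49 and 1.53 in STG and 2.03, 1.29 and 1.29 in CTG, and was listed at 0 in all 6 Sp5C libraries (log2 difference 2.09, adjusted p = 6.4e-07). A value listed as 0 may also be an estimate that failed. The size of both differences on the log2 scale follows from the pseudocount, and no fold is given. Values listed at 0 hold no spread, so the spread seen for this pair came almost wholly from the TG libraries. Their adjusted p may therefore overstate the precision.

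The other TG-enriched transcripts were present in both tissues. LNC_004006 lay between 1.64 and 2.41 FPKM in TG (median 1.88) and between 0.565 and 1.24 in Sp5C (median 0.752), with a log2 difference of 0.94 ± 0.15 (standard error, adjusted p = 6.94e-04). LNC_004213 lay between 1.24 and 2.1 in TG and between 0.229 and 1.08 in Sp5C (0.96 ± 0.18, adjusted p = 0.00202). LNC_002984 lay between 0.64 and 1.23 in TG and between 0.139 and 0.354 in Sp5C (0.97 ± 0.13, adjusted p = 2.68e-04). For each of these, the lowest TG library was above the highest Sp5C library. LNC_000087 (1.08, adjusted p = 0.041) and LNC_005579 (0.82, adjusted p = 0.0443) also passed, but their tissues overlapped and the calls were fragile. Both were lost without the minimum level (adjusted p = 0.104 and 0.0706) and with a replicate block (0.0803 and 0.0724). Each was also lost without any one of 9 of the 12 libraries. Summed with LNC_005578 of the same locus, LNC_005579 lay between 1.25 and 2.04 FPKM in TG and between 0.674 and 1.2 in Sp5C, without overlap.

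Among transcripts higher in Sp5C, LNC_000677 (locus XLOC_026494) and LNC_005567 (locus XLOC_210859) differed most. LNC_000677 was listed at 0 in STG replicates 1 and 3, was at most 0.32 FPKM in TG, and lay between 0.801 and 2.35 in Sp5C (median 1.5), with means of 0.144 ± 0.135 and 1.53 ± 0.535 and a log2 difference of −1.64 ± 0.13 (standard error, adjusted p = 3.78e-06). LNC_005567 lay between 0.238 and 0.838 in TG (median 0.466) and between 1.69 and 3.82 in Sp5C (median 2.17), with means of 0.496 ± 0.243 and 2.42 ± 0.829 and a log2 difference of −1.54 ± 0.22 (adjusted p = 3.23e-04). For both, every brainstem library was above every ganglion library, and LNC_005567 was above 0 in all 6 TG libraries.

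Smaller differences went in the same direction. LNC_005016 lay between 0.415 and 0.486 FPKM in the 6 TG libraries and between 0.865 and 1.32 in Sp5C (−0.72 ± 0.07, adjusted p = 2.1e-05). LNC_001836 lay between 0.316 and 0.489 against 0.706 to 0.981 (−0.58, adjusted p = 1.72e-04), and LNC_005566 between 0.108 and 0.398 against 0.823 to 1.21 (−0.97, adjusted p = 9.74e-05). Further transcripts of this kind were LNC_001592 (0.0882 to 0.454 against 0.89 to 1.57), LNC_005497 (0 to 0.375 against 0.511 to 1.06), LNC_004484 (0.183 to 0.694 against 0.776 to 0.91) and LNC_000495 (0.19 to 0.409 against 0.479 to 0.928), whose adjusted p were between 2.68e-04 and 0.0117. For these 7 and for LNC_000677 and LNC_005567, every Sp5C library was above every TG library. Another 6 transcripts that passed had overlapping tissues, with log2 differences between −0.76 and −0.30, among them LNC_004327 (1.05 ± 0.184 FPKM in TG, 1.49 ± 0.331 in Sp5C, n = 6 each), whose call was lost in 12 of 24 alternatives.

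**Figure D2:**
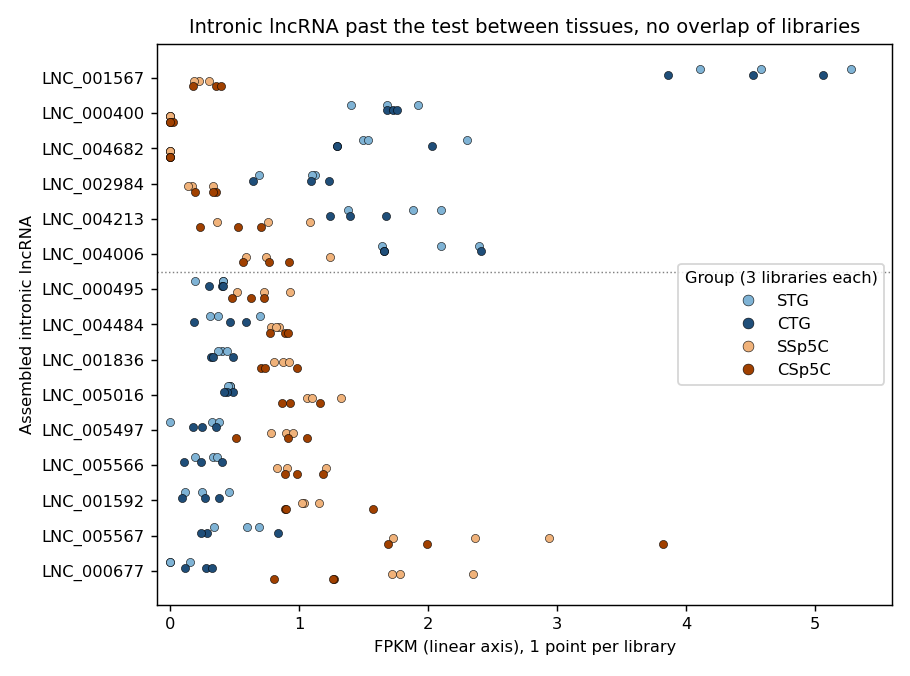
FPKM in each of the 12 libraries (x axis, linear) for the 15 intronic lncRNAs (y axis) that passed the test between tissues with no overlap of libraries, coloured by group. The 6 transcripts above the dotted line were higher in TG, LNC_001567 up to 5.28 FPKM, and the 9 below it were higher in Sp5C.

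**Figure D3:**
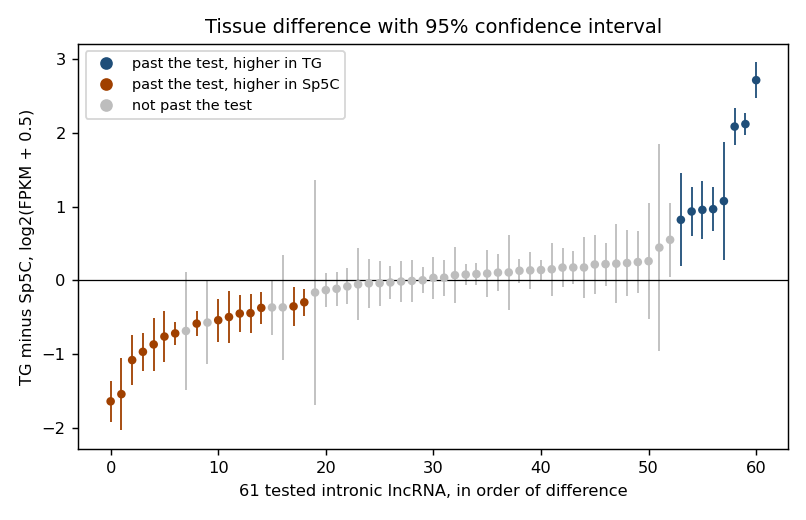
Difference of TG and Sp5C on the log2(FPKM + 0.5) scale (y axis) with its 95% confidence interval for the 61 tested intronic lncRNAs in order of size (x axis). The 8 blue points passed as higher in TG, from 0.82 to 2.72, and the 15 brown points as higher in Sp5C, from −1.64 to −0.30.

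Without the minimum level, 2012 intronic lncRNAs were tested and 93 passed, 42 as higher in TG and 51 as higher in Sp5C. Of all 5600 assembled transcripts, 799 passed (14.3%). The share among intronic lncRNAs was thus below that of all assembled transcripts, unlike among transcripts that met the minimum. This comparison was not matched for level. The median mean level was 0.0755 FPKM for intronic, 0.19 for antisense and 0.12 for intergenic transcripts. Of those 93, 74 lay under the minimum. LNC_005411 (locus XLOC_201536) had the largest difference among them, at 0.926, 0.857 and 0.895 FPKM in SSp5C, 0.529, 1.21 and 0.855 in CSp5C, and at most 0.0403 in TG (log2 difference −1.41, adjusted p = 1.02e-07). LNC_005410 of the same locus was listed at 0 in every TG library and lay between 0.0688 and 0.436 in Sp5C. LNC_003490 lay between 0.607 and 0.844 in Sp5C and between 0.0112 and 0.128 in TG (−1.05, adjusted p = 1.16e-06). LNC_004524 went the other way, from 0.638 to 1.02 in TG and from 0.148 to 0.262 in Sp5C (0.85, adjusted p = 1.41e-05). These 4 were picked after their values were seen.

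By order alone, 30 of the 2013 transcripts had all TG libraries above all Sp5C libraries and 29 the reverse. These are 1.49% and 1.44%, against 6.34% and 4.48% of all assembled transcripts. Transcripts with a complete split of detection are by definition a part of these. Above 0 in all 6 TG libraries and listed at 0 in all 6 Sp5C libraries were 9 transcripts, LNC_004682, LNC_000838, LNC_001152, LNC_004218, LNC_005293, LNC_002514, LNC_003047, LNC_000583 and LNC_004164, and apart from LNC_004682 none of them exceeded 0.746 FPKM. The reverse held for LNC_000819, LNC_005410 and LNC_002747. LNC_000819 was the steadiest of these, at 0.21, 0.204 and 0.265 in SSp5C and 0.238, 0.271 and 0.263 in CSp5C. At least 1 value above 0 in TG and none in Sp5C was found for 305 transcripts, and the reverse for 281, most of them seen in few libraries. These counts of detection in 1 tissue alone were taken for intronic lncRNAs only. Whether they differ from the shares over all assembled transcripts is unknown.

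Set beside the other assembled classes at like level, intronic lncRNAs had fewer tissue-split transcripts in the lower ranges. Between 0.1 and 0.2 FPKM, 12 of 443 intronic lncRNAs (2.71%) had no overlap of tissues, against 22.7% of 163 antisense and 22.3% of 631 intergenic transcripts. Between 0.2 and 0.5 FPKM the shares were 10.1% of 268, 31.7% of 259 and 26.9% of 650. Annotated sense intronic transcripts in the latter range stood at 10% of 40, near the assembled intronic ones. At 0.5 FPKM and over the shares were 24.6% of 61, 20.4% of 103 and 21.3% of 301. Within the 0.2 to 0.5 range, the median SD within groups, on the log2(FPKM + 0.5) scale, was 0.266 for intronic, 0.18 for antisense and 0.225 for intergenic transcripts. Transcripts share libraries and loci and are not replicates, so these shares are given as a description with no test.

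**Figure D4:**
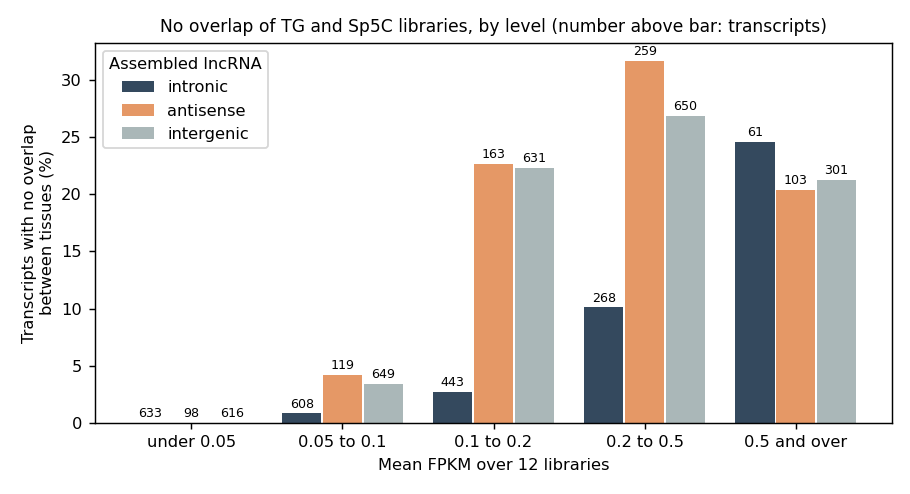
Percent of assembled transcripts whose 6 TG and 6 Sp5C libraries do not overlap (y axis), by mean FPKM over 12 libraries (x axis) and class, with the number of transcripts above each bar. Between 0.1 and 0.2 FPKM the intronic bar stands at 2.71% and the other bars at 22.7% and 22.3%, and at 0.5 FPKM and over all 3 lie between 20.4% and 24.6%.

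Intronic lncRNAs already in the annotation were more abundant. The deposited table of annotated lncRNA holds 163 transcripts typed as sense intronic, and how the tables were filtered and scaled relative to each other is not given in the sources used here. Their median mean level was 0.724 FPKM against 0.0755 for the assembled intronic lncRNAs, and 94.5% against 9.84% were above 0 in all 12 libraries. In a fit of all deposited transcripts together, 50 of 115 annotated sense intronic transcripts differed between tissues, 33 of them higher in TG and 17 higher in Sp5C. These are 43.5%, against 48.8% of all 26873 transcripts in that fit, and the 23 assembled ones that passed there were split 8 to 15. That difference in split was not tested.

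Over the 61 more abundant intronic lncRNAs, libraries resembled each other by tissue and not by letter. Correlations across these transcripts, on the log2(FPKM + 0.5) scale without centring and over their narrow range of mean levels (0.5 to 2.42 FPKM), had a median r of 0.602 within a group, 0.637 between letters of one tissue and −0.233 between tissues. The first principal component held 56% of the variance and parted the tissues without overlap. These 61 were chosen by their mean over the same libraries. Of the 15 calls without overlap among them, 13 met the minimum in 1 tissue only, so that the split was partly built in. It was not particular to intronic lncRNAs. The first component also parted the tissues for antisense (52.4%), intergenic (37.1%) and protein-coding transcripts (38.5%) of like level.

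CTG against STG compares the letters within the ganglion. None of the 56 intronic lncRNAs tested passed limma's test (0 of 56, and 0% of all 498 assembled transcripts), 2 (3.57%) had an unadjusted p under 0.05 against 15.1% of all, and the smallest adjusted p was 0.265. The median difference was −0.06 over the 56 and −0.17 over all 498 transcripts, on the log2(FPKM + 0.5) scale, and quantile normalization moved the latter to −0.003 (in CSp5C against SSp5C from 0.097 to 0.003, and for the difference of effects from −0.27 to −0.001). The median standard error of a difference among the 56 was 0.188.

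LNC_000234 (locus XLOC_007260) ranked first, at 0.511, 0.405 and 0.331 FPKM in STG and 0.707, 0.773 and 0.67 in CTG. All CTG libraries were above all STG libraries (log2 difference 0.41 ± 0.11, standard error, limma adjusted p = 0.265). LNC_000764 had the lowest p in the other direction, at 0.572, 0.819 and 0.701 in STG and 0.427, 0.451 and 0.441 in CTG, again without overlap (−0.34 ± 0.11, adjusted p = 0.265). LNC_000095, LNC_005579, LNC_003539 and LNC_002100 were next with higher means in CTG (adjusted p between 0.436 and 0.517), of which LNC_005579 turned from 0.27 to −0.0028 when its locus was summed, and LNC_004635, LNC_000230, LNC_003793 and LNC_004327 with lower means (0.359 to 0.438).

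Over all 2013 intronic lncRNAs, 60 (2.98%) had every CTG library above every STG library and 53 (2.63%) the reverse, against 2.11% and 7.43% of all assembled transcripts. Detected in all 3 CTG libraries and listed at 0 in the other 9 were LNC_000307 (0.533, 0.153 and 0.247 FPKM), LNC_004594 (0.272, 0.124 and 0.229), LNC_000966 (0.163, 0.412 and 0.283) and LNC_003986 (0.151, 0.148 and 0.274), and no transcript had the same pattern for STG. How many of all assembled transcripts had either pattern was not counted. CTG libraries were also deeper and had more intronic lncRNAs above 0 (873 to 990, against 804 to 872 in STG). Summed granulocyte markers were highest in CTG replicates 1 and 3 (871 and 292 FPKM). Whether the pattern goes with depth or with these markers was not tested. LNC_000966 shares its locus XLOC_035993 with LNC_000965, which stood at 0.407, 0.785 and 0.47 in STG and 0.179, 0.149 and 0.262 in CTG. Summed over both, the locus was at 0.407, 0.785 and 0.47 in STG and at 0.342, 0.561 and 0.545 in CTG, and the groups overlapped.

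CSp5C against SSp5C is the matching contrast in the brainstem nucleus. None of 68 intronic lncRNAs passed (0 of 68, and 0% of all 499 assembled transcripts), 3 (4.41%) had an unadjusted p under 0.05 against 5.01% of all, and the smallest adjusted p was 0.755. LNC_000677, one of the transcripts higher in Sp5C than in TG, stood at 2.35, 1.72 and 1.78 FPKM in SSp5C and 1.27, 1.26 and 0.801 in CSp5C. All CSp5C libraries were below all SSp5C libraries (log2 difference −0.61 ± 0.19, standard error, limma adjusted p = 0.755). With higher means in CSp5C, LNC_002860 stood at 0.492, 0.743 and 0.857 against 0.282, 0.273 and 0.368, and LNC_002312 at 0.936, 1.41 and 0.854 against 0.636, 0.654 and 0.537, both without overlap (adjusted p = 0.755 each).

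LNC_004635 (locus XLOC_175284) was among the named transcripts of both comparisons. It stood at 0.821, 0.59 and 0.698 FPKM in STG against 0.501, 0.502 and 0.571 in CTG, and at 0.698, 0.553 and 0.644 in SSp5C against 0.419, 0.445 and 0.529 in CSp5C. The letters did not overlap in either tissue, and it passed in neither (adjusted p = 0.359 and 0.77). LNC_001001, LNC_005093 and LNC_001399 were the other named transcripts with higher means in CSp5C, and LNC_000936, LNC_004175 and LNC_003566 those with lower means (adjusted p of 0.77 to 0.799). Of all 2013, 59 (2.93%) had every CSp5C library above every SSp5C library and 48 (2.38%) the reverse, against 4.14% and 2.11% of all assembled transcripts. Above 0 in all 3 CSp5C libraries and listed at 0 in the other 9 were LNC_001064 (1.09, 0.888 and 0.617 FPKM) and LNC_002787 (0.327, 0.0842 and 0.102), and LNC_002639 had this pattern for SSp5C (0.11, 0.125 and 0.394). These patterns were not counted over all assembled transcripts either. LNC_001064 is 1 of 4 transcripts of locus XLOC_037971, whose sum was 1.36, 0.067 and 0.468 in SSp5C and 1.21, 0.946 and 0.636 in CSp5C, so that the groups overlapped.

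Whether the C minus S difference itself differed between tissues was tested in a fit of all 12 libraries. None of 61 intronic lncRNAs passed (0 of 61, and 0% of all 465 transcripts), 4 (6.56%) had an unadjusted p under 0.05 against 16.1% of all, and the smallest adjusted p was 0.159. That was LNC_000677, with a difference of both effects of 1.03 ± 0.25 (standard error), whose TG values were 0, 0.153 and 0 FPKM in STG and 0.113, 0.276 and 0.32 in CTG. LNC_004196, LNC_002551, LNC_005016 and LNC_003681 had the next smallest p in the same direction (adjusted p of 0.44 to 0.648). In the other direction these were LNC_002312 (−0.62), LNC_000230 (−0.58), LNC_000764 (−0.53), LNC_003793 (−0.32) and LNC_003173 (−0.28, but 0.026 after quantile normalization), with adjusted p of 0.278 to 0.348.

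At some loci with several transcripts, the one that held most of the level changed from library to library. How reads were divided among transcripts of a locus is unknown, and the cause of these changes was not tested. While 1901 loci hold a single intronic lncRNA, 54 loci hold 2 to 4, with 112 transcripts between them. Of all 1955 loci, 14 also hold a transcript of another assembled class. In 50 of the 54 loci the transcript with the highest level was not the same in every library. These include loci near 0, such as XLOC_151709, with a mean sum of 0.0881 FPKM and values above 0 in 5 libraries. The other assembled classes were not counted in this way. At XLOC_142538, the locus with the highest level among them, LNC_003681 stood at 1.32, 0 and 0 FPKM in STG, 1.3, 2.22 and 0 in CTG, 1.94, 0 and 1.8 in SSp5C and 2.59, 0.00707 and 0 in CSp5C. LNC_003682 stood at 0.0481, 2.53 and 1.93 in STG, 1.64, 0.0232 and 1.38 in CTG, 0.0684, 1.43 and 0.0443 in SSp5C and 0.012, 2.27 and 1.07 in CSp5C. In all libraries but CTG replicate 1 one of these transcripts was high and the other at or near 0, in every group, whereas their sum with LNC_003683 lay between 1.07 and 2.96 in all 12.

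**Figure D5:**
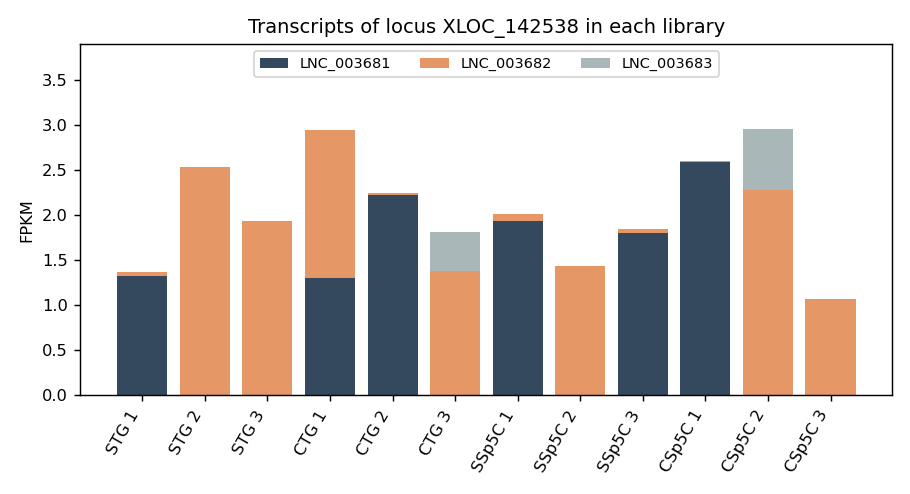
FPKM (y axis) of the 3 intronic lncRNAs of locus XLOC_142538, stacked, in each of the 12 libraries (x axis). Each library but CTG replicate 1 holds LNC_003681 or LNC_003682 with the other at or near 0, and LNC_003683 is above 0 only in CTG replicate 3 and CSp5C replicate 2, and the stacked height lies between 1.07 and 2.96.

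A like exchange was seen in 1 or more libraries at other loci, picked here after their values were seen. LNC_000095 was above 0 in the other 11 libraries and listed at 0 in CSp5C replicate 3, where LNC_000096 of the same locus stood at 0.71 FPKM. LNC_000211 and LNC_000212 behaved alike, with LNC_000212 at 0.721 in CSp5C replicate 3 and at 0 in every other library. At XLOC_211971, LNC_005579 stood at 0.137 in SSp5C replicate 1 and 0.0657 in CSp5C replicate 1, where LNC_005578 stood at 1.03 and 0.769. In STG replicate 2 both were present, at 1.04 and 0.995. Summed over each locus within its class, 67 intronic loci met the minimum, and 10 were higher in TG and 16 higher in Sp5C. These are 38.8%, against 45.1% of all 457 combinations of locus and class tested.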

How the data were processed

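The authors deposited FPKM values per transcript and library in 3 tables. Per the labels' protocols, total RNA was depleted of ribosomal RNA and made into directional libraries. The submitters' processing notes name HISAT2, StringTie 1.3.1 and Cuffdiff 2.1.1, and their roles, any filter, the genome build and annotation were not stated in the labels. Assembled transcripts with a mean of at least 0.5 FPKM over the libraries compared entered a two-sided test on log2(FPKM + 0.5) by limma 3.58.1 (R 4.3.3, trend and robust moderation), with Benjamini-Hochberg adjustment over all of them and a threshold of 0.05. TG against Sp5C and the difference of effects used 12 libraries, and C against S the 6 of its tissue. The code was tested on simulated data. Relative depth is the mode of pairwise log2 ratios of values under 1 FPKM, in windows of neighbouring 0.004 bins, and 60 of 66 pairs lay within 0.01 of common depths. At the modes lay 15 to 38 transcripts, against a median of 3 to 4 in other windows. Fragment numbers stay unknown, so no counting interval is given. Named transcripts were the 10 of highest mean, up to 10 per direction for tissue among those that passed without overlap, and 5 per direction for letters, filled by smallest p. The members, lists and rules were chosen with earlier results of these data known. A planned test of each transcript against its host gene was not run, because the table names no host, and the host lists were not used for the same reason. Correlations used scipy 1.17.1, with 100000 resamples where n was 10 or more. Alternatives were other pseudocounts, minimum levels, scalings, units and fits, each library left out, and a replicate block.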

Additional observations from a re-analysis of the deposited data

Results flagged for a closer look

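Among 88 groups of 6 values examined (41 named transcripts and 3 library measures in each tissue), 6 had a library far from the others by Dixon's criterion, and chance flags about 1 in 20 groups. In Sp5C, LNC_000087 was highest in SSp5C replicate 1 (1.74 FPKM), LNC_000230 lowest in SSp5C replicate 1 (0.229), LNC_000764 highest in CSp5C replicate 3 (1.07), and LNC_000400 highest in CSp5C replicate 2 (0.0194, the others listed at 0). In TG, LNC_003034 was highest in STG replicate 1 (1.52), the library with summed pituitary markers of 2860 FPKM, and whether these go together was not tested. The relative depth of CSp5C replicate 3 (0.826) lay apart from the other Sp5C libraries.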

How the results depend on the processing

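The count of 23 intronic lncRNAs between tissues, against 166 of all 465 assembled transcripts, lay between 18 and 23 without any one library. It was lowest without SSp5C replicate 2, against 157 of 469. All assembled transcripts called in these fits numbered between 145 and 168. The intronic count was 93 with no minimum level, against 799 of all 5600 assembled transcripts. With no minimum and a pseudocount of 0.1 it was 124, against 927 of 5600 (an alternative added after the data were seen). With a minimum of 2 FPKM, which leaves 1 transcript to test, it was 1, against 14 of 57. It was 22 with a pseudocount of 0.1 (against 166 of 465) or with a replicate block (against 159 of 465). Without STG replicate 1 and CTG replicate 1 together it was 21 (against 136 of 442), of which 19 were shared (also added later). The counts for C against S in each tissue and for the difference of effects were 0 under each alternative run. The 15 tissue calls without overlap of libraries were kept in all 355 fits of alternatives that tested them. They had been picked for passing without overlap in these same libraries. Their being kept therefore follows largely from that choice and is no separate support. Of the 8 with overlap, 6 lost the call in at least 1 alternative (52 of 186 fits), most often LNC_005579 (14 of 24), LNC_000087 (13), LNC_004327 (12) and LNC_002665 (8). The named transcripts of the other comparisons stayed on their side of the threshold, and 2 turned direction. LNC_005579 turned from 0.27 to −0.0028 in CTG against STG when summed per locus, and LNC_003173 from −0.28 to 0.026 for the difference of effects after quantile normalization. The replicate numbers did not pair libraries throughout. Deviations from group means over protein-coding genes correlated at 0.237 to 0.39 for same-numbered CTG and CSp5C libraries. Each of these libraries was best with its own number (6 of 6, with each pair counted from both sides, a hint from the data). Deviations of same-numbered STG and SSp5C libraries correlated at −0.222 to −0.032 (0 of 6). The replicate block moved the tissue count from 23 to 22 and left the other counts at 0. The 59 transcripts without overlap between tissues were 59 after median-ratio scaling too. The test against host genes was not run. Between 38.7% and 49.2% of all intronic lncRNAs were above 0 in any one library, and fragment numbers are unknown.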
